A study of Mus musculus with 48 samples.

Results

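Transcript levels were compared between ZT4 and ZT0 in the livers of mice whose light schedule had been advanced, using 8 of the 48 liver RNA sequencing libraries of a study of simulated jet lag. ZT, zeitgeber time, is the labelled time of day in hours after lights-on. The 8 libraries are the 4 labelled phase shift at ZT4 and the 4 labelled phase shift at ZT0, and all 14555 genes with enough reads were tested among the 54532 genes of the deposited table. The animals were male C57BL/6 mice, 8 to 10 weeks old and wild type (labelled WT), kept under 12 h of light and 12 h of darkness. Shifted mice went through a single 6 h advance of that cycle, and livers were taken at 4 h intervals from the middle of day 6 to the middle of day 7 after it. Control mice stayed on a steady cycle, and their 4 ZT4 and 4 ZT0 libraries serve here as the comparison for the same step without a shift. The arms come from the sample titles, because the treatment field reads phase shift for all 48 samples. Whether shifted mice were timed by the new or the old lights-on is not stated, and the design text names ZT0 and ZT12 only.

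The liver clock is a feedback loop of transcription. CLOCK or its relative NPAS2 pairs with BMAL1, the product of Arntl, and switches on genes that carry E-boxes, among them the Per and Cry repressors, the Nr1d1 and Nr1d2 genes for the REV-ERB receptors and the PAR bZIP genes Dbp, Tef and Hlf. PER and CRY proteins then block CLOCK and BMAL1, while REV-ERB receptors silence Arntl, Npas2, Nfil3 and Cry1 through ROR elements and PAR bZIP factors drive a second wave of genes through D-boxes. In liver this timing reaches glycogen, lipid and bile acid metabolism, where feeding and hormones add their own daily signals.

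Total counts ran from 15484166 to 17500568 in the 8 libraries, and 3 counts, the limit that a count of 0 allows in 1 library, equalled 0.171 to 0.194 CPM of the library total, a limit that covers counting error only. Levels are given below as CPM, counts scaled to the library size after TMM adjustment. Transcripts of the mitochondrial genome took 7.34%, 15.0%, 13.1% and 7.19% of the counts at ZT4 and 19.9%, 9.88%, 7.10% and 7.08% at ZT0. The mean share was 10.7% ± 4.01 at ZT4 and 11.0% ± 6.07 at ZT0 (SD, n = 4 each, two-sided exact permutation p = 1, smallest possible p 0.0286). ZT4 replicates 2 and 3 and ZT0 replicates 1 and 2 lay above 9.54%, a limit exceeded by 8 of all 48 libraries. The count of calls is therefore also given without them, with 2 libraries at each time, as are the values of some genes and lists. All 9 hepatocyte markers tested were present, with a summed level of 81560 to 98070 CPM at ZT4 and 79950 to 90920 CPM at ZT0, and none was called. The 12 Kupffer cell markers, genes of the resident macrophages of the liver, summed to 511, 71.8, 96.4 and 363 CPM at ZT4 and 37.6, 124, 468 and 688 CPM at ZT0. The 12 markers of sinusoidal endothelial cells summed to 512, 122, 101 and 308 CPM at ZT4 and 83.3, 165, 430 and 561 CPM at ZT0. Both sets were lower in the libraries with a high mitochondrial share than in the others of their group, and all 24 of these genes had a log2 difference below 0 with none called. Without the libraries of high mitochondrial share all 12 markers of each set stayed below 0, with medians of -0.449 for Kupffer and -0.235 for endothelial markers. With the other libraries kept, however, the direction depended on single libraries. Without ZT0 replicate 4 all 12 Kupffer cell markers and 9 of the 12 endothelial markers were above 0, and without ZT4 replicate 3 this held for 8 of the 12 endothelial markers. In bulk tissue, fewer cells of a type and less RNA per cell cannot be told apart.

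The first question was which transcripts differ between ZT4 and ZT0 in shifted livers. At an adjusted p under 0.05 in edgeR's quasi-likelihood test, 192 of 14555 genes were called (1.32%), of which 63 were higher at ZT4 (0.433%) and 129 were lower (0.886%). Genes of the clock itself were among the strongest. Dbp, a PAR bZIP factor, had a log2 difference of 6.93, the largest among the called genes, and Tef, Per3, Nr1d1, Nr1d2 and Bhlhe41 were also higher at ZT4, while Arntl, Npas2, Nfil3, Cry1 and Lonrf3 were lower. Of the called genes, 188 are protein coding, 77 differed by at least 1 on the log2 scale (23 higher and 54 lower), and in 162 the 4 libraries of each time did not overlap (54 higher, 108 lower). Such separation was seen in 737 of all tested genes (5.06%), with ZT4 above ZT0 in 2.27% and below it in 2.8%. The median difference of all tested genes was -0.02, with 6914 of them above 0.

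The count of calls depended on single libraries and on the fit. It was 121 without ZT4 replicate 1, 82 without ZT4 replicate 3, 72 without ZT4 replicate 4, 80 without ZT0 replicate 1 and 68 without ZT0 replicate 2. A fit of the 8 libraries alone, whose spread then rests on them and not on all 48, called 3 genes, namely Dbp, Tef and Npas2. The p-values of the main fit measure the spread within groups over all 48 libraries, which the labels present as 24 mice per arm.

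**Figure D1:**
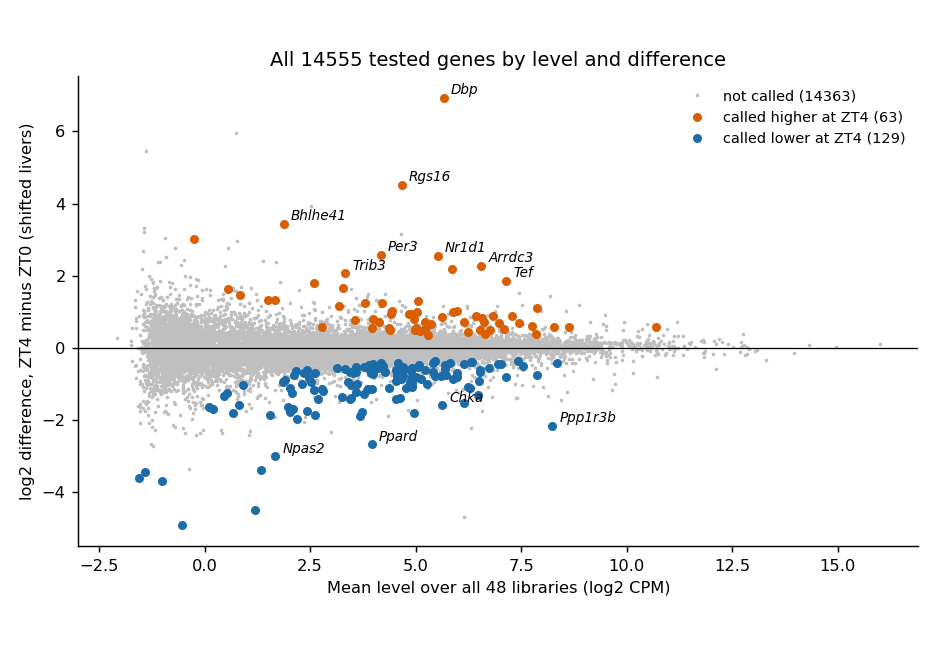
Each point is 1 of the 14555 tested genes, with its mean level over all 48 libraries on the horizontal axis (log2 CPM) and its log2 difference, ZT4 minus ZT0 in shifted livers, on the vertical axis. Orange points are the 63 genes called higher at ZT4 and blue points the 129 called lower, and Dbp lies farthest from 0 among the called genes.

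Among the PAR bZIP and output genes, 13 were tested, 3 rose, 2 fell and 8 did not pass. Dbp (chromosome 7) had 33.3, 77.1, 81.7 and 55.2 CPM at ZT4, against 0.226, 0.643, 0.562 and 0.512 CPM at ZT0. All 4 ZT4 libraries stood far above all 4 ZT0 libraries (log2 difference 6.93, SE 0.62, adjusted p = 1.42e-09). The ZT0 values of Dbp are near the counting limit given above, so the size of the difference is poorly fixed. It ran from 4.14 to 7.14 under the alternative fits listed below. Tef, a second PAR bZIP factor that binds the same D-box sites, had 83.1, 97.8, 108 and 111 CPM at ZT4, against 22.6, 30.5, 30.3 and 27.0 CPM at ZT0. Its groups were also apart, with little spread inside either (log2 difference 1.86, SE 0.19, adjusted p = 1.30e-08). Nfil3, a repressor that competes with PAR bZIP factors for D-boxes, had 20.6, 13.0, 18.2 and 18.9 CPM at ZT4, against 78.3, 64.4, 31.9 and 74.2 CPM at ZT0. It moved the opposite way from Dbp and Tef, with ZT0 replicate 3 the lowest of its group (log2 difference -1.81, SE 0.31, adjusted p = 5.95e-04). Lonrf3, a RING finger gene, had 1.63, 0.595, 0.399 and 1.14 CPM at ZT4, against 2.41, 3.33, 4.94 and 4.21 CPM at ZT0, without overlap (log2 difference -1.96, SE 0.41, adjusted p = 0.00611). Rgs16, which speeds up GTP hydrolysis by G proteins, had 61.3, 3.64, 29.2 and 79.97 CPM at ZT4, against 0.0754, 0.234, 0.281 and 6.77 CPM at ZT0. Its groups overlapped, since ZT4 replicate 2 lay below ZT0 replicate 4, and although it passed the test (log2 difference 4.51, SE 1.02, adjusted p = 0.0149) the call was lost without ZT4 replicate 4 (adjusted p = 0.0614), without ZT0 replicate 1 (adjusted p = 0.0770), without ZT0 replicate 2 (adjusted p = 0.0914) and without ZT0 replicate 3 (adjusted p = 0.0518). Without ZT0 replicate 4 its log2 difference was 7.67, and the other ZT0 values lie near or below the counting limit, so its size is poorly fixed. The third PAR bZIP gene, Hlf, had 35.4, 35.4, 25.7 and 44.4 CPM at ZT4, against 34.7, 37.5, 34.9 and 34.8 CPM at ZT0, with the groups mixed (log2 difference -0.01, SE 0.14, adjusted p = 0.992). Upp2, uridine phosphorylase, had a log2 difference of 1.03 (adjusted p = 0.246) and passed only without ZT0 replicate 4 (adjusted p = 0.0448). The remaining members Elovl3, Wee1, Usp2, Noct, Coq10b and Nampt had log2 differences from -1.46 to 1.02 with adjusted p from 0.144 to 0.983. Elovl3, a fatty acid elongase, and Wee1, a cell cycle kinase, had groups that did not overlap.

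Of the 10 clock repressors tested, 4 rose and 1 fell. Nr1d1, which encodes REV-ERB alpha, had 134, 117, 141 and 147 CPM at ZT4, against 14.6, 12.2, 10.3 and 54.6 CPM at ZT0. ZT0 replicate 4 stood well above the other ZT0 libraries and still below every ZT4 library (log2 difference 2.55, SE 0.45, adjusted p = 0.00120). Nr1d2, which encodes REV-ERB beta, had 95.7, 58.1, 85.4 and 90.0 CPM at ZT4, against 11.8, 11.0, 22.9 and 27.2 CPM at ZT0, again without overlap (log2 difference 2.17, SE 0.32, adjusted p = 9.08e-05). Per3, of the PER family, had 4.33, 8.53, 13.6 and 5.70 CPM at ZT4, against 1.21, 1.17, 1.18 and 1.76 CPM at ZT0. The 4 ZT0 libraries were close together and the ZT4 libraries spread over a wider range above them (log2 difference 2.58, SE 0.37, adjusted p = 7.61e-05). Bhlhe41, a repressor that occupies E-boxes, had 1.52, 5.49, 4.12 and 4.43 CPM at ZT4, against 0.302, 0.409, 0.562 and 0.114 CPM at ZT0 (log2 difference 3.45, SE 0.57, adjusted p = 4.04e-04). Its ZT0 values are near the counting limit given above, so the size of the difference is poorly fixed. Cry1 was the repressor that fell, with 10.0, 5.82, 6.05 and 4.18 CPM at ZT4, against 10.0, 23.0, 15.7 and 19.2 CPM at ZT0. The highest ZT4 library and the lowest ZT0 library almost met (log2 difference -1.38, SE 0.29, adjusted p = 0.00619), and the call was lost without ZT4 replicate 4 (adjusted p = 0.0522) and without ZT0 replicate 2 (adjusted p = 0.0521). The other 5 did not pass. Per1, a repressor that also responds to light and glucocorticoids, had 1.35, 7.67, 2.33 and 2.60 CPM at ZT4, against 1.21, 4.32, 2.75 and 0.740 CPM at ZT0, with wide overlap. Per2 had a log2 difference of -0.23 (SE 0.39), Ciart one of 0.63 (SE 0.69) and Bhlhe40 one of 0.92 (SE 0.31), with adjusted p of 0.924, 0.850 and 0.162. Cry2 had a log2 difference of 0.52 (adjusted p = 0.0727) and passed without ZT4 replicate 2 (adjusted p = 0.0352) and without ZT0 replicate 4 (adjusted p = 0.0182).

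In the activating limb of the loop, Npas2 and Arntl fell. Npas2, the alternative partner of BMAL1, had 1.97, 0.860, 1.60 and 1.01 CPM at ZT4, against 12.0, 12.6, 8.82 and 10.7 CPM at ZT0. The groups were far apart (log2 difference -3.00, SE 0.51, adjusted p = 5.95e-04). Arntl, which encodes BMAL1, had 14.6, 3.84, 5.59 and 6.02 CPM at ZT4, against 20.8, 23.9, 27.1 and 31.0 CPM at ZT0. ZT4 replicate 1 was the highest of its group and lay nearest to the ZT0 libraries, without reaching them (log2 difference -1.77, SE 0.29, adjusted p = 4.04e-04). Neither Clock nor Rora, which encodes the activating receptor ROR alpha, passed, with -0.44 for Clock (SE 0.16, adjusted p = 0.212) and, for Rora, -0.03 (SE 0.16, adjusted p = 0.982). Over the 28 genes of the 3 clock lists, 7 rose, 6 fell and 15 did not pass. Of all tested genes 0.433% rose and 0.886% fell.

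**Figure D2:**
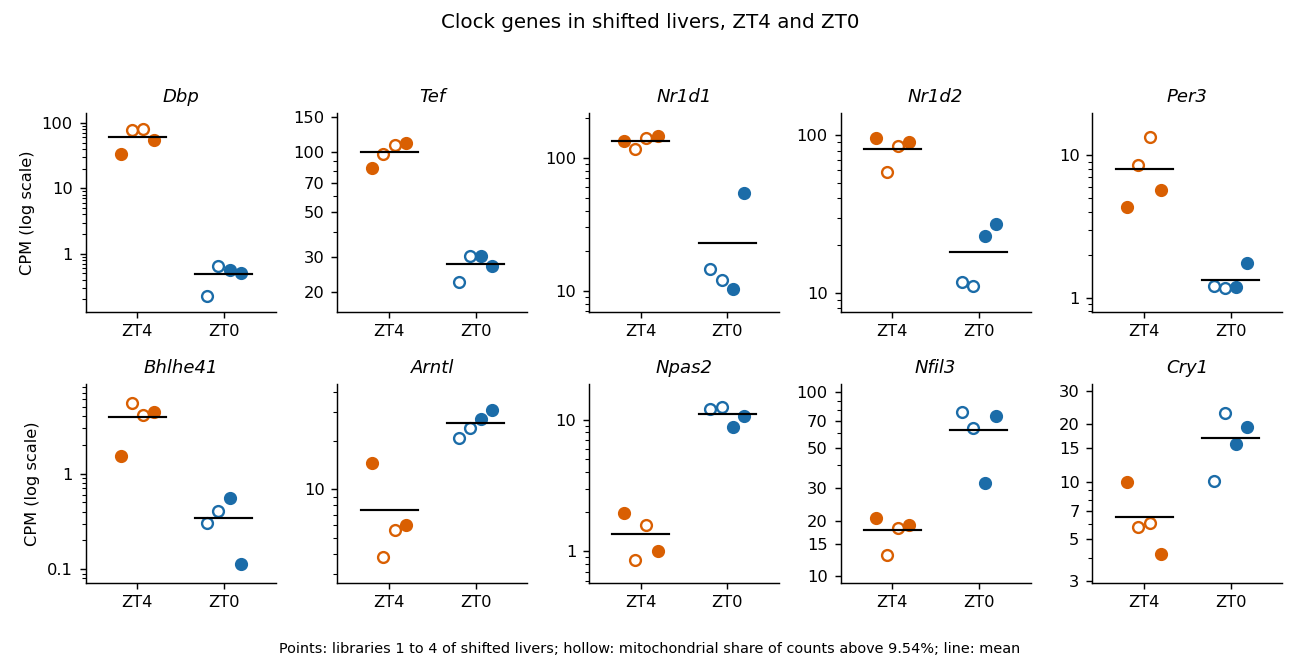
Levels in CPM (log scale) of 10 called clock genes in the 4 ZT4 and 4 ZT0 libraries of shifted livers, with a line at the mean and hollow points for libraries above 9.54% mitochondrial counts. The 6 genes from Dbp to Bhlhe41 sit higher at ZT4 and the 4 genes from Arntl to Cry1 sit lower, in hollow and filled points alike.

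Without the 4 libraries of high mitochondrial share, Dbp and Tef kept their calls, with log2 differences of 6.34 (adjusted p = 4.71e-05) and 1.76 (adjusted p = 4.71e-05). The other 11 called clock genes kept their direction and lost the call. The differences then were 2.11 for Nr1d1, 1.89 for Nr1d2, 3.09 for Bhlhe41, -1.49 for Arntl, -2.69 for Npas2, -1.29 for Cry1 and -1.42 for Nfil3. Per3 had the difference that shrank most of the 11, to 1.76, and its higher ZT4 values were those of replicates 2 and 3, which are left out in this comparison. The lowest adjusted p among the 11 in that fit was 0.132 for Nr1d2.

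To show the sequences at which the activators and repressors of the loop are known to act, the RefSeq promoters (250 bases before to 50 bases after each start, build GRCm38.p6) were searched on both strands. The E-box was searched as CACGTG, the D-box as TTATGTAA and the ROR element as TAGGTCA. Of 23 genes of the clock lists with a promoter in that table, the E-box was found in Tef, Bhlhe41, Cry1, Lonrf3, Per1, Ciart and Coq10b, the D-box in Per3 and Coq10b, and the ROR element in Nfil3 and, 30 bases after the start, in Arntl. The matches before the start of the called genes are shown 5′ to 3′ on the strand of the gene, with the motif in capitals.
Tef, upstream start (chr15:81802519-81802579, plus strand): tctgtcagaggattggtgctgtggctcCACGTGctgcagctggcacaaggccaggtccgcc
Tef, downstream start (chr15:81811249-81811309, plus strand): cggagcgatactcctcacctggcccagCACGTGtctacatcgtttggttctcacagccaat
Bhlhe41 (chr6:145865540-145865600, minus strand): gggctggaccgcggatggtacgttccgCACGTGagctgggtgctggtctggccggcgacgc
Per3, first match (chr4:151044836-151044896, minus strand): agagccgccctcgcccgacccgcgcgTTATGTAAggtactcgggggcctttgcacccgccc
Per3, second match (chr4:151044789-151044849, minus strand): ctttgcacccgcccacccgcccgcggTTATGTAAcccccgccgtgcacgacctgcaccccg
Cry1 (chr10:85185081-85185141, minus strand): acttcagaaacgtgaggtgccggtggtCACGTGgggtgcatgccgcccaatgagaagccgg
Lonrf3 (chrX:36328337-36328397, plus strand): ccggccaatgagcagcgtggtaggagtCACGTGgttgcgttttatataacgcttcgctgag
Nfil3 (chr13:52981018-52981078, minus strand): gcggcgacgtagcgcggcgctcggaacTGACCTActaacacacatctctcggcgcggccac
Tef carries the same E-box at both of its annotated starts, and Per3 carries 2 D-boxes. Tef and Bhlhe41 rose while Cry1 and Lonrf3, with the same letters, fell. Nfil3, which fell, carries the ROR element read on the opposite strand. The E-box stood in the promoter of 8.09% of 27025 genes, in 23.5% of the 51 called higher and in 10.9% of the 101 called lower that had a promoter in the table (152 of the 192 called genes). The D-box stood in 1.11%, 1.96% and 0%, and the ROR element in 2.97%, 1.96% and 5.94%. The 27025 genes are all those with a promoter in that source, whereas calls could come only from the 14555 genes tested, so the sets are unlike. Symbols absent from that source were matched by synonym, which can pick another gene. Asl, which was not called, was matched to Adsl in this way. How many of the 152 matches are affected was not checked. The shares describe letters in a window of 300 bases and were not tested.

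The step from ZT0 to ZT4 was then placed within the 6 labelled times of the shifted arm, each a mean of 4 libraries. Dbp averaged 0.486, 61.8, 161, 108, 24.1 and 3.68 CPM at ZT0, ZT4, ZT8, ZT12, ZT16 and ZT20. The step thus started at its daily low and ended on the way to its highest mean. Tef averaged 27.6, 99.96, 245, 247, 189 and 98.9 CPM at the same times, so that ZT4 was also on its rising side. Nr1d1 averaged 22.9, 135, 109, 38.7, 15.8 and 2.43 CPM, with its highest mean at ZT4 itself. Arntl averaged 25.7, 7.52, 0.916, 0.773, 6.73 and 26.7 CPM and was thus still falling at ZT4. Of the 63 genes called higher at ZT4, 36 had their highest mean at ZT8, 19 at ZT4 and 8 at ZT12, and 30 had their lowest mean at ZT0. Of the 129 genes called lower, 63 had their highest mean at ZT0, 40 at ZT16 and 25 at ZT20, and their lowest mean was at ZT4 in 65 and at ZT8 in 54. Among all tested genes 20.6% had their highest mean at ZT0 and 18.7% their lowest at ZT4. Since calls were made on ZT4 and ZT0, these counts describe the called genes and carry no test.

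**Figure D3:**
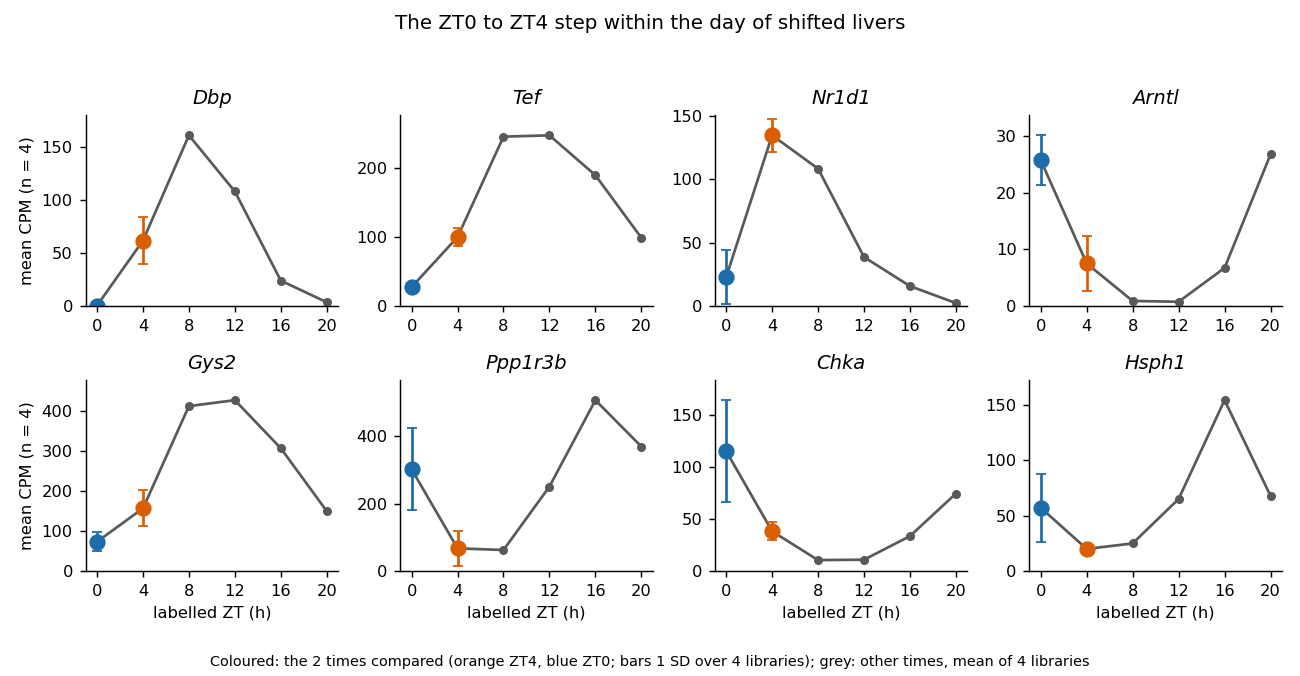
Mean CPM (linear axis from 0) of 8 genes at the 6 labelled times of the shifted arm, with the 2 compared times in colour and bars of 1 SD over 4 libraries. At ZT4 Dbp, Tef and Gys2 are still rising, Nr1d1 is at its highest, Arntl and Chka are still falling, and Ppp1r3b and Hsph1 are near their lowest mean.

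Outside the clock lists, the genes with the largest increases among called protein coding genes (mean level of at least 1 log2 CPM, no overlap) were led by Arrdc3. Arrdc3, an alpha-arrestin, had 192, 202, 294 and 424 CPM at ZT4, against 42.4, 41.6, 65.2 and 79.6 CPM at ZT0. Every ZT4 library exceeded every ZT0 library by a wide margin (log2 difference 2.28, SE 0.37, adjusted p = 4.04e-04). Hdc, the enzyme that makes histamine from histidine, had 4.39, 15.3, 8.45 and 19.2 CPM at ZT4, against 1.96, 3.74, 3.48 and 4.27 CPM at ZT0 (log2 difference 1.80, SE 0.33, adjusted p = 0.00149). Its ZT4 values were spread out and its lowest lay just above the highest ZT0 value. Gnat1, known as the transducin subunit of rod cells, had 44.6, 47.7, 60.2 and 41.1 CPM at ZT4, against 22.4, 12.7, 22.1 and 21.1 CPM at ZT0 (log2 difference 1.31, SE 0.26, adjusted p = 0.00444). Eepd1 rose as well (log2 difference 1.25, adjusted p = 5.95e-04), and with Arrdc3, Hdc and Gnat1 it kept its call whichever single library was left out. Trib3, a pseudokinase of the stress response, averaged 24.2 ± 9.09 CPM at ZT4 and 5.75 ± 3.46 CPM at ZT0 (SD, n = 4; log2 difference 2.07, SE 0.46, adjusted p = 0.0137), and its call was lost without ZT4 replicate 4 (adjusted p = 0.0676), without ZT0 replicate 1 (adjusted p = 0.0634) and without ZT0 replicate 2 (adjusted p = 0.0863). Mrnip, a DNA damage response gene, had one of 1.33 and lost its call without ZT0 replicate 1 (adjusted p = 0.0739) and without ZT0 replicate 2 (adjusted p = 0.0921). Rnf186, a ubiquitin ligase gene, had one of 1.16 and kept its call only without ZT4 replicate 2 and ZT0 replicate 1, with adjusted p up to 0.161 otherwise.

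The largest decreases included receptor, enzyme and transporter genes. Slc34a2, a sodium phosphate cotransporter, had 0.844, 0.926, 0.532 and 0.0633 CPM at ZT4, against 7.47, 4.15, 7.42 and 6.09 CPM at ZT0. The ZT4 values lay close to the counting limit and all ZT0 values well above it (log2 difference -3.39, SE 0.60, adjusted p = 0.00118). Ppard, the fatty acid receptor PPAR delta, had 5.06, 6.94, 5.92 and 6.08 CPM at ZT4, against 65.3, 46.1, 16.0 and 25.8 CPM at ZT0. The ZT4 libraries were tightly grouped and the ZT0 libraries spread widely above them, highest in replicates 1 and 2, the libraries of high mitochondrial share (log2 difference -2.67, SE 0.41, adjusted p = 2.13e-04). Dnmt3b, a de novo DNA methyltransferase, had 1.41, 2.05, 1.93 and 1.65 CPM at ZT4, against 8.75, 5.90, 6.18 and 4.72 CPM at ZT0 (log2 difference -1.86, SE 0.31, adjusted p = 4.04e-04). Chka, choline kinase alpha, had 46.6, 39.5, 26.2 and 40.2 CPM at ZT4, against 180.2, 122, 93.8 and 65.5 CPM at ZT0 (log2 difference -1.59, SE 0.29, adjusted p = 0.00187). Both were apart in all libraries, and the ZT0 values of Chka were again highest in replicates 1 and 2. Entpd7, a nucleotide hydrolase, had a log2 difference of -1.64 (adjusted p = 0.00293), and with Slc34a2, Ppard, Dnmt3b and Chka it kept its call whichever single library was left out. Fam222a had one of -1.87 and lost its call without ZT4 replicate 3 (adjusted p = 0.0553) and without ZT0 replicate 1 (adjusted p = 0.0722). Ccdc134 had one of -1.78 and lost its call without ZT4 replicate 1 (adjusted p = 0.0547), without ZT4 replicate 4 (adjusted p = 0.0612), without ZT0 replicate 1 (adjusted p = 0.0722) and without ZT0 replicate 2 (adjusted p = 0.0950). Srgap3, a GTPase activator of the Slit-Robo pathway, had one of -1.75 and kept its call only without ZT4 replicate 1, ZT0 replicate 3 and ZT0 replicate 4 (adjusted p up to 0.160 otherwise). Loxl4, a lysyl oxidase relative, had one of -1.70 and kept its call only without ZT4 replicate 1 (adjusted p up to 0.131 otherwise). Without the 4 libraries of high mitochondrial share the log2 differences were 2.09 for Arrdc3, 1.59 for Hdc, -3.83 for Slc34a2, -1.91 for Ppard, -1.84 for Dnmt3b, -0.88 for Chka and -1.02 for Entpd7, none with an adjusted p under 0.05. The other genes named here for large changes were not called in that fit either.

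Glycogen genes changed in both directions. Of 9 tested, 2 rose and 1 fell, against 0.433% and 0.886% of all tested genes, and the median log2 difference was 0.22. That median was 0.03 without ZT4 replicate 1, 0.06 without ZT0 replicate 1 and 0.38 without ZT0 replicate 4. Gys2, the glycogen synthase of liver, had 128, 136, 139 and 225 CPM at ZT4, against 42.2, 70.2, 83.8 and 97.2 CPM at ZT0. All ZT4 libraries were above all ZT0 libraries, with ZT4 replicate 4 apart from the others (log2 difference 1.10, SE 0.22, adjusted p = 0.00444), and the call was lost without ZT4 replicate 4 (adjusted p = 0.0581). Ugp2, which makes the UDP-glucose that glycogen synthase uses, had 393, 329, 326 and 322 CPM at ZT4, against 155, 213, 293 and 259 CPM at ZT0 (log2 difference 0.58, SE 0.16, adjusted p = 0.0495). It kept its call only without ZT0 replicate 3 and ZT0 replicate 4, with adjusted p up to 0.258 otherwise, and lost it with a replicate block. Ppp1r3b, the liver subunit that brings protein phosphatase 1 to glycogen and so activates the synthase, had 70.4, 138, 21.5 and 38.9 CPM at ZT4, against 356, 375, 356 and 119 CPM at ZT0. ZT0 replicate 4 fell below ZT4 replicate 2, so the groups overlapped (log2 difference -2.17, SE 0.54, adjusted p = 0.0316), and the call held only without ZT4 replicate 2 and ZT0 replicate 4 (adjusted p up to 0.142 otherwise). Ppp1r3c, a second targeting subunit, had 81.1, 63.8, 19.2 and 65.7 CPM at ZT4, against 151, 131, 96.5 and 118 CPM at ZT0, lower without overlap and short of the threshold (log2 difference -1.11, SE 0.32, adjusted p = 0.0709). None of the other 5 passed, Gyg, Pygl, Gbe1 and Ppp1r3g among them. Without the libraries of high mitochondrial share the log2 differences were 0.96 for Gys2, 0.37 for Ugp2, -2.12 for Ppp1r3b and -0.55 for Ppp1r3c, with adjusted p of 0.158 or more.

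Of 16 genes of glycolysis and fructose breakdown, 1 rose, against 0.433% of all tested genes. Slc2a2, the glucose transporter GLUT2 of hepatocytes, had 451, 340.0, 342 and 413 CPM at ZT4, against 208, 258, 250.5 and 310.4 CPM at ZT0, without overlap (log2 difference 0.59, SE 0.15, adjusted p = 0.0328). Its call held only without ZT4 replicate 2, ZT4 replicate 3 and ZT0 replicate 4, with adjusted p up to 0.165 otherwise. Gapdh, which has many processed pseudogenes, read 222 CPM in ZT4 replicate 3 alone and at most 13.1 CPM elsewhere. Whether the pseudogenes affect its counts was not tested. None of the 11 gluconeogenesis genes was called. G6pc, glucose-6-phosphatase, had a log2 difference of -1.23 (SE 0.46) and Pck1, phosphoenolpyruvate carboxykinase, one of 0.72 (SE 0.43), so that the means of these 2 enzymes of 1 pathway pointed in opposite directions without passing the test (adjusted p = 0.226 and 0.560). Tat, tyrosine aminotransferase, had 1192, 866, 634 and 676 CPM at ZT4, against 1536, 1822, 1034 and 1541 CPM at ZT0 (log2 difference -0.82, SE 0.23, adjusted p = 0.0634) and passed without ZT4 replicate 1 (adjusted p = 0.0229) and without ZT0 replicate 3 (adjusted p = 0.0323). Of 16 glucocorticoid targets, 1 fell, against 0.886% of all tested genes. Tsc22d3, which encodes the anti-inflammatory protein GILZ, had 28.9, 45.5, 18.5 and 22.2 CPM at ZT4, against 91.6, 93.8, 60.6 and 36.8 CPM at ZT0, with overlap between ZT4 replicate 2 and ZT0 replicate 4 (log2 difference -1.30, SE 0.34, adjusted p = 0.0393). It kept its call only without ZT4 replicate 2, ZT0 replicate 3 and ZT0 replicate 4 (adjusted p up to 0.186 otherwise). Without the libraries of high mitochondrial share Slc2a2 had a log2 difference of 0.62 (adjusted p = 0.266) and Tsc22d3 one of -0.93 (adjusted p = 0.818). Ddit4, an inhibitor of mTORC1 signalling, had a log2 difference of -1.50 (adjusted p = 0.0517), with no overlap, and passed without ZT4 replicate 2 (adjusted p = 0.0284), without ZT0 replicate 3 (adjusted p = 0.0496) and without ZT0 replicate 4 (adjusted p = 0.0287).

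Of 24 genes of fatty acid oxidation and PPARA targets, 22 had a log2 difference above 0, 1 rose and none fell. Among all 14555 tested genes 6914 were above 0, 0.433% rose and 0.886% fell. The list median was 0.32, and it was 0.41 without the libraries of high mitochondrial share, where no member was called. Bdh1, which interconverts the ketone bodies, had 225, 214, 258 and 290.3 CPM at ZT4, against 136, 169.7, 182 and 165 CPM at ZT0, without overlap (log2 difference 0.60, SE 0.16, adjusted p = 0.0393). The call held only without ZT4 replicate 2 and ZT0 replicate 3 (adjusted p up to 0.177 otherwise) and was lost with a replicate block. Acadl, an acyl-CoA dehydrogenase of beta-oxidation, was higher without overlap and did not pass (log2 difference 0.34, SE 0.11, adjusted p = 0.132). Plin2, a lipid droplet coat protein, had 422, 491, 433 and 1158 CPM at ZT4, against 329.8, 419, 464 and 417 CPM at ZT0, where ZT4 replicate 4 alone stood far above the rest (log2 difference 0.62, SE 0.22, adjusted p = 0.201). Pdk4, an inhibitor of pyruvate dehydrogenase, was one of the 2 members below 0 (log2 difference -1.51, adjusted p = 0.176). Of 18 genes of serine, glycine and one-carbon metabolism, 1 fell and none rose. Sds, Sdsl and Nnmt of this list did not pass (log2 differences 0.44, -0.42 and -0.34).

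**Figure D4:**
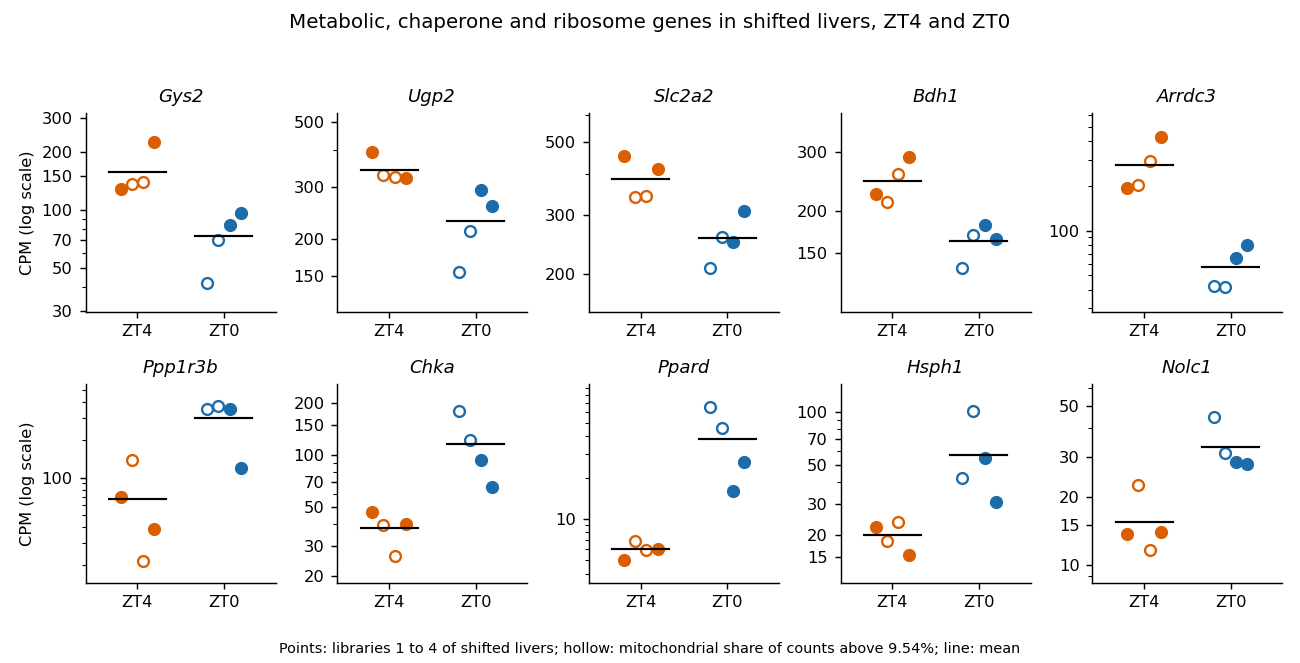
Levels in CPM (log scale) of 10 called genes of metabolism, chaperones and ribosome production in the 4 ZT4 and 4 ZT0 libraries of shifted livers, with a line at the mean and hollow points for libraries above 9.54% mitochondrial counts. The 5 genes of the upper row sit higher at ZT4 and the 5 of the lower row lower, and ZT0 replicate 4 of Ppp1r3b lies among the ZT4 values.

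Of 19 heat shock proteins and co-chaperones, 18 had a log2 difference below 0, with a median of -0.41, and 1 fell. For comparison, 6914 of all 14555 tested genes were above 0 and 0.886% fell. Hsph1, a nucleotide exchange factor for HSP70, had 22.2, 18.5, 23.6 and 15.3 CPM at ZT4, against 42.1, 101, 54.5 and 30.9 CPM at ZT0. The groups did not overlap, with ZT0 replicate 2 the highest (log2 difference -1.52, SE 0.39, adjusted p = 0.0393). With single libraries left out, the call held only without ZT0 replicate 4 (adjusted p up to 0.291 otherwise). It was also lost with limma-voom, with no filter on low counts and in both FPKM fits. Hspa1b, an inducible HSP70, had 2.70, 6.88, 2.99 and 5.76 CPM at ZT4, against 15.8, 31.5, 16.1 and 4.10 CPM at ZT0, overlapping only through ZT0 replicate 4 (log2 difference -1.88, SE 0.63, adjusted p = 0.152). Bag3, a co-chaperone of HSP70, had a log2 difference of -1.10 and passed without ZT4 replicate 2 (adjusted p = 0.0425) and without ZT0 replicate 4 (adjusted p = 0.0368), and Chordc1, a co-chaperone of HSP90, had one of -0.80 and passed without ZT0 replicate 4 (adjusted p = 0.0339). The list summed to 2983, 2563, 3421 and 2613 CPM at ZT4 and 3999, 4704, 3400 and 2876 CPM at ZT0, highest in the 2 ZT0 libraries of high mitochondrial share. Without the 4 such libraries the median was -0.23 and no member was called. Of 20 genes of the unfolded protein and integrated stress response, 17 were below 0 and the 1 called, Trib3, rose. The list median was -0.54 with all libraries and -0.11 without those of high mitochondrial share. In that smaller set 12 of the 20 genes were below 0 and no member was called. Hspa5, the BiP chaperone of the endoplasmic reticulum, had 639, 502, 748 and 605 CPM at ZT4, against 1032, 2374, 945 and 653 CPM at ZT0 (log2 difference -1.01, SE 0.34, adjusted p = 0.167), where ZT0 replicate 2 was the highest. Dnajb9, its partner, had a log2 difference of -1.14 and passed without ZT4 replicate 2 (adjusted p = 0.0461), without ZT0 replicate 3 (adjusted p = 0.0426) and without ZT0 replicate 4 (adjusted p = 0.0253). Sel1l, of the degradation machinery of that compartment, had one of -0.54 with all libraries and -0.06 without those of high mitochondrial share. In the fit with the log2 mitochondrial share as a covariate, the medians were -0.41 for the heat shock list and -0.55 for the unfolded protein list, close to those with all libraries. Leaving out only ZT0 replicate 2, the median of the unfolded protein list was -0.27, and leaving out only ZT0 replicate 1 it was -0.35.

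Of 21 ribosome biogenesis genes, 17 were below 0, 1 fell and none rose, with a median of -0.35, and of -0.27 without the libraries of high mitochondrial share. No gene of the list was called in that smaller set. Nolc1, a nucleolar phosphoprotein, had 13.7, 22.5, 11.6 and 13.9 CPM at ZT4, against 45.1, 31.1, 28.3 and 27.8 CPM at ZT0, without overlap (log2 difference -1.10, SE 0.26, adjusted p = 0.0200). Its call held only without ZT4 replicate 2, ZT0 replicate 3 and ZT0 replicate 4 (adjusted p up to 0.133 otherwise). Nop14, Polr1b, a subunit of RNA polymerase I, and Heatr1 were also lower without overlap and missed the threshold (log2 differences -0.42, -0.55 and -0.68; adjusted p = 0.0632, 0.102 and 0.103), and Nop14 passed without ZT4 replicate 2 (adjusted p = 0.0462) and without ZT0 replicate 4 (adjusted p = 0.0388). In all, 7 of the 21 genes had groups that did not overlap, 6 of them lower. Among all tested genes 5.06% had such groups, with 2.8% lower, and 6914 of 14555 had a log2 difference above 0. The list was not tested against these shares. Of the 27 other lists, 26 held no called gene, among them cholesterol synthesis (25 genes tested), fatty acid synthesis (18), bile acid synthesis and transport (16), the urea cycle (11), xenobiotic metabolism (18) and acute phase proteins (17). Over the 26 lists the medians ran from -0.39 for Kupffer cell markers to 0.42 for cold-inducible RNA binding. In the lists just named they ran from -0.09 for the urea cycle to 0.20 for xenobiotic metabolism. Without the libraries of high mitochondrial share the medians of the named lists ran from -0.22 for the urea cycle to 0.23 for fatty acid synthesis, with 0.02 for xenobiotic metabolism. The exception was the cell cycle list, where Ccnf, cyclin F, fell (log2 difference -1.14, adjusted p = 0.0380) and kept its call only without ZT4 replicate 2, ZT0 replicate 3 and ZT0 replicate 4 (adjusted p up to 0.188 otherwise). Without the libraries of high mitochondrial share no cell cycle gene was called. In autophagy and lysosome genes, 13 of 17 were above 0, against 6914 of all 14555 tested genes. In this list 3 were higher without overlap, against 2.27% of all tested genes. The 3 were Ulk1, Bnip3 and Gabarapl1, with log2 differences of 0.85, 0.46 and 0.59 and none called.

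Leaving out the 4 libraries above 9.54% mitochondrial counts, and the 4 others in the series, left ZT4 replicates 1 and 4 and ZT0 replicates 3 and 4. With these, 8 of 14966 genes were called (0.0535%), of which 7 were higher and 1 was lower. An unadjusted p under 0.05 was reached by 962 genes. The 7 also called with all libraries were Dbp, Tef, Jade1, Gstt2, Tns2 and Esrrg, which were higher at ZT4, and Zbtb21, which was lower. All 192 genes called with all libraries kept their direction, and 168 of them had an unadjusted p under 0.05. Their median difference was 0.82 for the 63 higher genes and -0.71 for the 129 lower, against 0.87 and -0.86 with all libraries. The libraries left are among those that gave the calls, and 162 of the 192 genes had groups that did not overlap. Direction, unadjusted p and medians were thus largely fixed in advance and are no independent check. Zbtb21, a zinc finger gene of the BTB family, had 4.61, 5.69, 6.78 and 4.62 CPM at ZT4, against 17.1, 15.8, 14.5 and 10.9 CPM at ZT0 with all libraries (log2 difference -1.43, SE 0.21, adjusted p = 8.09e-05). Tns2, the adhesion protein tensin 2, had 65.9, 69.6, 58.4 and 85.2 CPM at ZT4, against 37.6, 41.1, 39.9 and 34.3 CPM at ZT0 (log2 difference 0.87, SE 0.16, adjusted p = 0.00191). Jade1, a subunit of histone acetyltransferase complexes, had 51.9, 44.0, 34.2 and 56.6 CPM at ZT4, against 29.2, 25.0, 30.8 and 28.3 CPM at ZT0 (log2 difference 0.72, SE 0.14, adjusted p = 0.00259). These 3 were separate in all libraries and stayed called whichever single library was left out. Gstt2, a glutathione transferase, had 95.6, 95.4, 131 and 106 CPM at ZT4, against 83.0, 55.0, 46.7 and 45.6 CPM at ZT0, apart with ZT0 replicate 1 highest of its group (log2 difference 0.90, SE 0.22, adjusted p = 0.0245), and kept its call only without ZT4 replicate 1, ZT4 replicate 2 and ZT0 replicate 1 (adjusted p up to 0.123 otherwise). Esrrg, an orphan nuclear receptor of energy metabolism, had 8.27, 1.65, 3.32 and 5.07 CPM at ZT4, against 1.96, 1.93, 0.843 and 2.62 CPM at ZT0, where ZT4 replicate 2 lay within the ZT0 range (log2 difference 1.32, SE 0.32, adjusted p = 0.0233), and kept its call only without ZT4 replicate 2, ZT4 replicate 3 and ZT0 replicate 4 (adjusted p up to 0.216 otherwise), with a log2 difference of 0.87 without ZT4 replicate 1. A fit with the log2 mitochondrial share as a covariate called 336 genes, which included all 192. It used the same libraries and is no independent check.

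**Figure D5:**
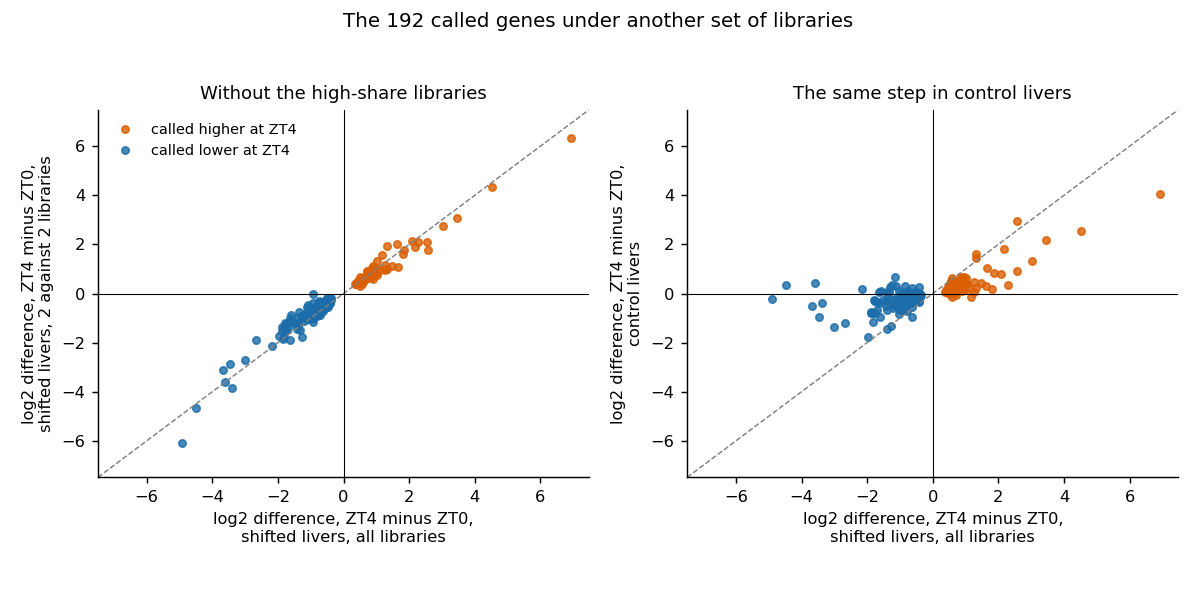
Log2 difference, ZT4 minus ZT0, of the 192 called genes in shifted livers with all libraries (horizontal axis) against the same difference without the libraries of high mitochondrial share (left, 2 against 2 libraries) and against the step in control livers (right), with the line of equality dashed. All 192 keep their sign on the left, where the libraries are part of those that gave the calls. On the right, 167 have the same sign in control livers, where 7286 of all 14555 tested genes were below 0.

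The same step in control livers uses other libraries, so both can be set side by side. In control livers 40 genes were called (0.275%), 30 higher (0.206%) and 10 lower (0.0687%). Calls in both arms were made for 11 genes, all in the same direction, which is 5.73% of the calls in shifted livers and 27.5% of those in control livers. Among them were Dbp, Tef, Nr1d1, Nr1d2, Slc2a2, Gnat1 and Esrrg, higher at ZT4, and Cry1, Lonrf3 and Mreg, lower. Of the 192 genes called in shifted livers, 167 had the same sign in control livers, 59 of the 63 higher and 108 of the 129 lower, with medians in control livers of 0.36 and -0.25. Of all 14555 tested genes, 7286 were below 0 in control livers and 6914 above 0 in shifted livers. The share of all tested genes with the same sign in both arms was not computed. Across all tested genes Pearson's r between the 2 steps was 0.184 and Spearman's rho 0.189, a description over genes that are not independent.

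Dbp had 1.45, 12.4, 1.72 and 25.5 CPM at ZT4, against 0.865, 0.511, 0.674 and 0.432 CPM at ZT0 in control livers, a log2 difference of 4.04 (SE 0.58, adjusted p = 1.52e-04). The ZT0 levels were alike in both arms and the ZT4 levels of control livers spread widely below those of shifted livers. Tef had a step of 0.85 (SE 0.18, adjusted p = 0.0239) in control livers and Arntl one of -0.79 (SE 0.28, adjusted p = 0.315). Nr1d1 and Cry1 had steps of 2.95 (SE 0.46, adjusted p = 8.70e-04) and -1.45 (SE 0.28, adjusted p = 0.00729) in control livers, close to those of shifted livers. Arrdc3 had 59.6, 144, 69.5 and 97.0 CPM at ZT4, against 84.3, 36.2, 108 and 62.5 CPM at ZT0 in control livers, a step of 0.35 (SE 0.36, adjusted p = 0.887). Gys2 had a step of 0.21 (SE 0.22, adjusted p = 0.887) and Ppp1r3b one of 0.18 (SE 0.51, adjusted p = 0.962) there.

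The difference between the steps of shifted and control livers was tested directly. In edgeR no gene was called (0%), with 900 at an unadjusted p under 0.05 and a smallest adjusted p of 0.108, while DESeq2 called 18, edgeR with the mitochondrial share as a covariate 10, and edgeR without control ZT4 replicate 4 called 8 and without control ZT4 replicate 1 called 1. The smallest p in edgeR belonged to Tkfc, which phosphorylates glyceraldehyde from fructose, with a step of 0.04 in shifted and 1.02 in control livers (difference -0.98, unadjusted p = 1.33e-05). Among the 10 protein coding genes with the smallest p were Asl, argininosuccinate lyase, and Slc25a15, the mitochondrial ornithine carrier, both of the urea cycle. Asl had steps of -0.43 and 0.61 in shifted and control livers and Slc25a15 steps of -0.31 and 0.46 (unadjusted p of the difference 4.37e-05 and 5.36e-05). Ccnf, Trim7, a ubiquitin ligase gene, Sdc1, the proteoglycan syndecan-1, Fam53b and E030018B13Rik had lower steps in shifted livers, and Dsg1c, a desmosomal cadherin, and Inmt, an N-methyltransferase, had higher ones. Of the 192 genes called in shifted livers, 105 had an unadjusted p under 0.05 for this difference, among them Dbp (difference 2.89), Tef (1.00) and Arrdc3 (1.93), but they were selected for their size in 1 of the arms. Without the libraries of high mitochondrial share edgeR again called no gene for this difference, with 798 at an unadjusted p under 0.05. The difference was then 1.94 for Dbp (unadjusted p = 0.0847), 0.71 for Tef (unadjusted p = 0.0165) and 1.57 for Arrdc3 (unadjusted p = 0.0208). An effect called in shifted livers only is therefore not shown to differ from control livers.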

How the data were processed

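Liver RNA of 48 mice was sequenced, and 8 libraries, 4 per time, form the comparison. Per the labels' protocols, a company did the sequencing, mapping and quantification. The genome build is mm10, per the submitters' processing notes, with aligner and counter not given in the sources used here. The authors deposited raw counts per gene and FPKM values. Tested on the values, each deposited FPKM equalled the count over gene length and 1 factor per library, and all tests of the main results used the counts.

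In R 4.3.3, edgeR 4.0.16 kept 14555 genes by filterByExpr over the 12 groups. After TMM scaling, 1 robust quasi-likelihood model of all 48 libraries, with a mean for each of the 12 groups, gave by F tests the contrasts ZT4 minus ZT0 in shifted livers, in control livers, and their difference. Adjusted p is Benjamini-Hochberg over all tested genes, called under 0.05. Alternatives were RLE scaling, DESeq2 1.42.0, limma-voom and limma 3.58.1 on log2 FPKM with pseudocounts of 0.1 and 1, other filters, the 8 libraries alone, libraries left out, the mitochondrial share as a covariate, mitochondrial transcripts removed and a replicate block. The scripts were tested on simulated data.

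Gene lists, comparisons and the rule for named genes were chosen with earlier results of these data known. Named are all members of the 3 clock lists, up to 15 genes with the largest change in each direction (called, protein coding, mean of at least 1 log2 CPM, groups apart), up to 4 members with the smallest p of each of 12 lists, up to 10 with the smallest p for the difference between arms and up to 10 called with and without libraries above 9.54% mitochondrial counts. Some genes this rule takes are not reported here. Mreg, Ulk1, Bnip3 and Gabarapl1 were named after their values were seen. Of 39 lists, the 27 not described gene by gene are given by counts. Libraries of 1 group differed by more than counting error. Promoters were read from RefSeq, build GRCm38.p6.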

Additional observations from a re-analysis of the deposited data

Results flagged for a closer look

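In 15 of 190 groups of 4 libraries tested, those of the genes chosen by the naming rule and of the mitochondrial share, 1 library stood apart by more than Dixon's 95% criterion allows, and chance alone flags about 1 in 20 groups. In ZT0 replicate 4, Nr1d1 had 54.6 CPM against 10.3 to 14.6 in the other ZT0 libraries, Per3 had 1.76 CPM against 1.17 to 1.21, and Rgs16 had 6.77 CPM against 0.0754 to 0.281. These 3 genes rose at ZT4, so that this library lay on the ZT4 side of its group in each. Ppp1r3b had 119 CPM in the same library against 356 to 375 in the others, again on the ZT4 side, while Sdc1 had 442 CPM there against 341 to 347, on the far side from ZT4. ZT0 replicate 4 has a mitochondrial share of 7.08%, the lowest of the 8 libraries.

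In ZT4 replicate 4, the liver glycogen synthase gene Gys2 had 225 CPM against 128 to 139, Pck1 had 2519 CPM against 1820 to 1886, and the lipid droplet gene Plin2 had 1158 CPM against 422 to 491. Ugp2 had 393 CPM in ZT4 replicate 1 against 322 to 329, and Gapdh had 222 CPM in ZT4 replicate 3 against 1.97 to 11.2. In ZT0 replicate 1, Fam222a had 13.0 CPM against 5.84 to 6.49 and Nampt had 25.3 CPM against 38.0 to 40.0. In ZT0 replicate 2, Hlf had 37.5 CPM against 34.7 to 34.9, Sel1l had 288 CPM against 144 to 155, and Gnat1 had 12.7 CPM against 21.1 to 22.4.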

How the results depend on the processing

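The count of 192 genes called between ZT4 and ZT0 was 296 with DESeq2, 93 with no filter on low counts, 3 in the fit of the groups compared alone, 8 without the libraries of high mitochondrial share and 336 with that share as a covariate. With 1 library left out it ran from 68 to 275. It stayed between 159 and 194 with RLE scaling, limma-voom, a filter of 1 CPM, mitochondrial transcripts left out and both FPKM fits. The share of calls that were higher was 32.8%, against 87.5% without the libraries of high mitochondrial share, 66.7% in the fit of the groups compared alone and 48.8% without ZT4 replicate 3. The difference between arms, with 0 genes called, gave 18 with DESeq2, 10 with the covariate, 1 in each FPKM fit and 0 to 8 with 1 library left out. The difference in mitochondrial share of -0.31 percentage points ran from -1.76 to 2.65 with 1 library left out, above 0 without ZT4 replicate 1 (0.80), ZT4 replicate 4 (0.85) and ZT0 replicate 1 (2.65). For the 47 called genes chosen by the naming rule, 725 of 940 values under these alternatives stayed called and 215 did not, with none reversed. These genes were called in the same libraries, which most alternatives reuse, so their direction was largely fixed in advance. The cause of the changes under the alternatives was not tested.

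Libraries with the same replicate number deviated from their group means with correlations of -0.54, 0.14, -0.32 and 0.40. ZT0 replicate 1 had correlations of 0.517 and 0.404 with ZT4 replicates 2 and 3, which also have a high mitochondrial share. Such correlations therefore cannot decide whether the numbers pair the libraries. A fit with a replicate block called 183 genes, 173 of them shared with the 192, and 0 for the difference between arms. A count of 0 in a library allows 0.171 to 0.194 CPM, which limits the lowest values of Bhlhe41, Slc34a2, Dbp and Rgs16.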
